A study of Mus musculus with 24 samples.

Results

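The MYC-MAX-MXD network is a set of transcription factors that compete for MAX and for a shared DNA motif. Its 10 genes Myc, Mycn, Mycl, Max, Mxd1, Mxd3, Mxd4, Mnt, Mlx and Mga were taken as the rows that carry these symbols in a table of 21833 mouse protein-coding genes, and 10 of 10 were found. Only the endogenous mouse loci have rows there, so the human MYCN transgene carried by some of the mice was not measured as a gene of its own.

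Proteins of the MYC family (Myc, Mycn and Mycl) bind DNA as dimers with MAX at the E-box, spelled CACGTG, and activate genes of growth, ribosome production and cell division. MXD proteins, MNT and MGA also dimerize with MAX and repress through corepressor complexes, so the balance of the partners sets the output of shared promoters. MLX resembles MAX and links the network to the glucose-sensing factors MLXIP and MLXIPL. In neuroblastoma, a tumor of the sympatho-adrenal lineage, amplified MYCN marks high-risk disease, and in cells with a high MYC-family level Myc and Mycn are usually found in exchange for each other.

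The study compared poly(A)-selected, strand-specific RNA-seq libraries of 24 mouse tissue samples in 4 groups. The group AG held adrenal glands from mice without Cre (CRE -, n = 3). AGM held adrenal glands, free of tumor, from mice with Cre and a MYCN transgene on 1 allele (MYCN +/-, CRE +, n = 5). TI held neuroblastomas that arose in mice with Cre and an IGF2BP1 transgene (CRE +, n = 8), of which 7 were IGF2BP1 +/+ and 1 was IGF2BP1 +/-. TIM held neuroblastomas that arose in mice with Cre and both transgenes (IMP1/MYCN, CRE +, n = 8), where IMP1 is another name of IGF2BP1, an RNA-binding protein. The transgenes lay behind a stop cassette in the Rosa26 locus and were opened by an iCre driven by Dbh, the gene of a noradrenaline-making enzyme, so they were on in sympatho-adrenal cells and not in the whole gland. The AG mice had no Cre, whereas all other groups had it. Ages are not in the labels, and AGM and tumors were not matched for age in the study. TIM mice also survived for a shorter time than IGF2BP1 +/+ mice. Per the study, most IGF2BP1 tumors lay in the lower abdomen and rarely in the adrenal gland. IGF2BP1/MYCN mice more often had tumors of the adrenal gland, and some had tumors along the spine. Tumor against gland comparisons thus also set different sites side by side. Both transgenes lay in Rosa26, so TIM mice had fewer IGF2BP1 alleles than the IGF2BP1 +/+ mice of TI. TIM and TI thus differ in IGF2BP1 dose as well as in the MYCN transgene. The question was how the endogenous network differs between tumors and glands, and whether it differs between tumors with and without the MYCN transgene.

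Values are FPKM, reads per kilobase of gene length and per 1000000 reads of a library size scaled by the authors. Outside 126 genes that exceeded 1000 FPKM in some library, the libraries held 12334076 to 23683176 reads after the authors' batch correction. With these genes included, they held 17434796 to 17893013 reads in AG and 12468968 to 21353172 in TI. In AGM they held 116740738 to 1170004708 and in TIM 58530450 to 888626365, so most corrected reads there lay in these genes. The scaled library size was 5.98 to 6.19 times the read number outside these genes in AG and 5.58 to 6.47 times in TI. It was 3.54 to 5.02 times in AGM and 4.62 to 6.13 times in TIM. Results were therefore repeated with FPKM recomputed per 1000000 of those reads, which moved the median difference of all genes by over 0.1 on the log2 scale in TIM vs AGM (to 0.24), AGM vs AG (to -0.34), TIM vs AG (to -0.14) and TIM vs TI (to -0.12). AG were sequenced in run 1, AGM in run 2, TIM in runs 2 and 3, and 6 of the 8 TI samples in run 1, so against AG the run and the group AGM or TIM cannot be told apart. The columns do not show which TI or TIM library belongs to which run, and no comparison could be made within a run. Libraries are numbered here by their order in the table, which only names them.

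The labelled tissues were checked against marker genes. The summed level of 10 adrenal cortex markers was 681 to 709 FPKM in AG and 4394 to 5514 FPKM in AGM, against 0.498 to 13.9 FPKM in TI and 1.28 to 13.3 FPKM in TIM. The summed level of 10 sympatho-adrenal markers was 141 to 203 FPKM in AG and 1288 to 2165 FPKM in AGM, and in tumors it was 208 to 1795 FPKM (TI) and 219 to 4718 FPKM (TIM). In TI vs AG and TIM vs AG, 9 of the 10 cortex markers fell, beside 27.7% and 28.5% of all genes tested. The tumors thus held almost no cortex RNA while the glands were rich in it, and this difference in cell types moves with every tumor against gland comparison of network genes. Its part in those differences was not tested. In bulk tissue, fewer cells of a type and less RNA per cell cannot be told apart. The part of run and batch correction in the high AGM sums was not tested either.

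The 250 bases before the canonical transcript start of each gene (GENCODE, GRCm39, the build of the files) were searched for the palindromic E-box CACGTG, which reads the same on both strands. It was present for Max, Mxd3, Mxd4 and Mlx, 4 of 10 network genes (40%), against 7.93% of the windows of 10160 tested genes and 6.31% of those of 21687 genes in the table. It was not present in the windows of Myc, Mycn, Mycl, Mxd1, Mnt and Mga. The median GC content of the windows was 61.4% for the network genes and 56.8% for tested genes. The 4 stretches are shown because they hold the network's own binding motif in genes of the network, in capitals, each read in the direction of its gene:
Max, chr12:77009008-77009037, minus strand, E-box 25 bases before the start: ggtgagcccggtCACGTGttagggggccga
Mxd3, chr13:55477810-55477839, minus strand, E-box 223 bases before the start: gcgtcccgcgcgCACGTGtagcccaggccg
Mxd4, chr5:34345256-34345285, minus strand, E-box 33 bases before the start: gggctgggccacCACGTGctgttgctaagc
Mlx, chr11:100978064-100978091, plus strand, E-box 16 bases before the start: ggtgggttggatCACGTGactgagcctc
Of these 4 genes, Max and Mxd3 rose in TI vs AG and Mxd4 and Mlx fell, as described for each gene. The stretches of Max, Mxd3 and Mlx overlap an annotated exon, and that of Mxd4 lies outside every one. The motif is a description of these letters in the window and says nothing of binding in these tissues, which was not measured.

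The leading member of the MYC family differed between glands and tumors. Mycn (ENSMUSG00000037169, chr12:12986076-12992915, minus strand) was at 0.580, 0.559 and 0.823 FPKM in AG and at 0.689, 0.559, 1.19, 0.838 and 0.613 FPKM in AGM. In TI the lowest, median and highest library were at 1.57, 7.67 and 15.6 FPKM, and in TIM at 1.20, 2.97 and 4.38 FPKM. Every tumor library was above every gland library, though TIM library 8 (1.20 FPKM) only just passed AGM library 3 (1.19 FPKM), and the TI libraries spread over a wide range. In mean FPKM, Mycn was 13.1-fold higher in TI than in AG and 4.34-fold higher in TIM than in AG.

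On the log2(FPKM + 1) scale, which understates changes of low genes, Mycn rose by 2.30 ± 0.41 (SE; FDR = 5.4e-05, limma) in TI vs AG. FDR is the p-value of limma after Benjamini-Hochberg adjustment over all genes tested, and a gene passed at an FDR under 0.05. The rise in TIM vs AG was 1.15 ± 0.41 (FDR = 0.0214), and it was lost without AG library 1 (FDR = 0.0686) or AG library 2 (FDR = 0.0717) and with limma-voom on recovered reads (FDR = 0.0563). In TIM vs AGM, where all mice carried the MYCN transgene, Mycn was higher by 1.06 ± 0.34 (FDR = 0.01). TIM tumors had less Mycn than TI tumors, by -1.14 ± 0.30 (FDR = 0.0094). In AGM vs AG the difference was 0.10 ± 0.44 (FDR = 0.904), and its sign turned with recomputed FPKM (-0.19, FDR = 0.824). Reads of the human MYCN transgene could in part have aligned to mouse Mycn in AGM and TIM. Mycn in AGM, which carries that transgene, was at 0.559 to 1.19 FPKM. The transgene was on in sympatho-adrenal cells only. AGM glands were rich in cortex RNA and TIM tumors held almost none, so the AGM level does not speak for TIM. The part of such reads in AGM and TIM was not tested.

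Myc (ENSMUSG00000022346, chr15:61857227-61862223, plus strand) took the opposite course. It was at 4.58, 4.32 and 4.53 FPKM in AG and at 3.51, 2.48, 3.59, 2.43 and 2.36 FPKM in AGM. In TI the lowest, median and highest library were at 0.400, 0.795 and 1.74 FPKM, and in TIM at 0.150, 0.389 and 1.13 FPKM. All gland libraries were above all tumor libraries, and all AG above all AGM libraries. The mean level in TI was 0.212 times and in TIM 0.0989 times that in AG.

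Myc fell in TI vs AG by 1.53 on the log2 scale (SE 0.19, FDR = 6.71e-07, limma) and in TIM vs AG by 1.95 (SE 0.19, FDR = 1.55e-08). It also fell in TIM vs AGM, with a difference of -1.44 ± 0.16 (FDR = 8.69e-08). The lower level in AGM than in AG, -0.51 ± 0.21, did not pass the test (FDR = 0.07), but passed with recomputed FPKM (-1.07, FDR = 0.0443), with limma-voom on recovered reads (-1.16, FDR = 0.00667) and in a fit of AGM and AG alone (FDR = 0.00875). In TIM vs TI, Myc was lower by -0.42 ± 0.14 (FDR = 0.0375). That call was lost when any of TI libraries 1, 4, 6 and 8 or TIM libraries 2, 3, 4 and 6 was left out (FDR between 0.0554 and 0.0776), in a fit of TI and TIM alone (FDR = 0.0884) and with no filter on low values (FDR = 0.0619).

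Mycl (ENSMUSG00000028654, chr4:122889408-122896282, plus strand), the family member first described in lung cancer, was near the bottom of the range in glands. It was at 0.127, 0.0917 and 0.121 FPKM in AG and at 0.0641, 0.0539, 0.0864, 0.0829 and 0.151 FPKM in AGM. In TI it ran from 0.0470 over a median of 1.15 to 2.8 FPKM, and in TIM from 0.307 over 0.958 to 2.77 FPKM. TI library 6 was at gland level, with 0.0470 FPKM, while the other 7 TI libraries and all TIM libraries were above every gland. Mycl rose by 0.98 ± 0.29 in TI vs AG (FDR = 0.00643, limma), by 0.85 ± 0.29 in TIM vs AG (FDR = 0.0168) and by 0.88 ± 0.24 in TIM vs AGM (FDR = 0.00306). With limma-voom on recovered reads none of these 3 passed (FDR = 0.168, 0.195 and 0.0525), and the rise in TIM vs AG was lost without AG library 2 (FDR = 0.056) or AG library 3 (FDR = 0.0506). In TIM vs TI the difference was -0.13 ± 0.21 (FDR = 0.712). No gland reached the 1 FPKM that was asked of 3 libraries, so Mycl entered the test through tumors alone.

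**Figure D1:**
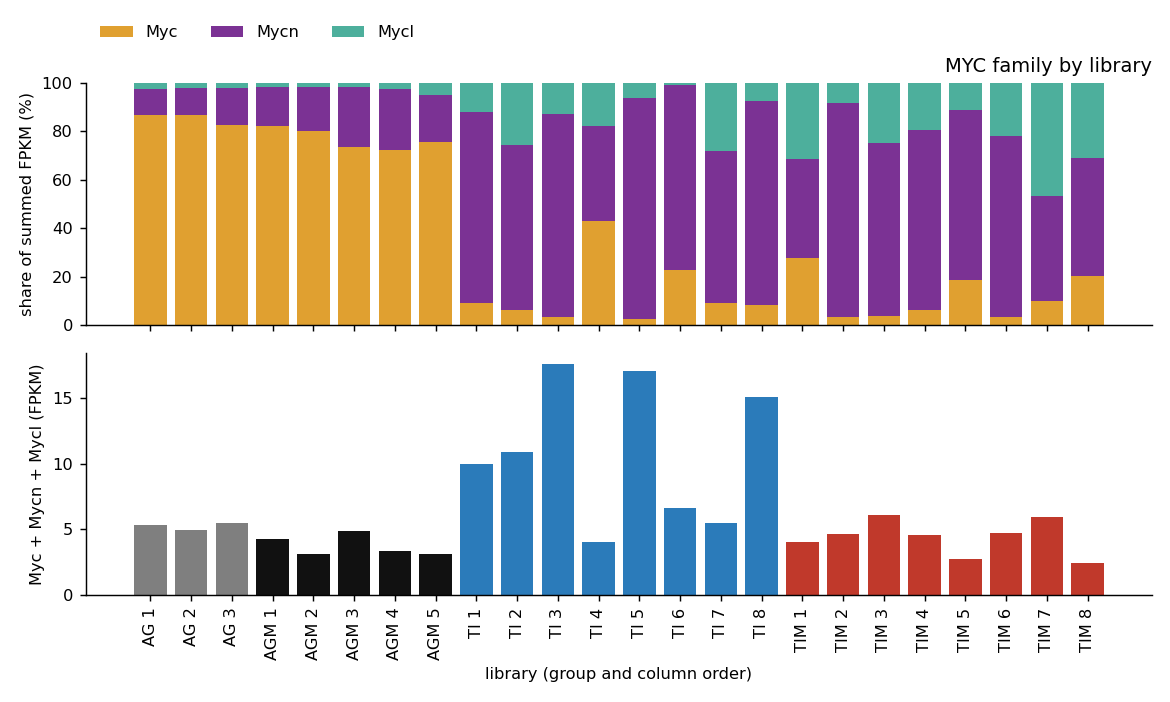
Stacked bars give the percent of the summed FPKM of Myc, Mycn and Mycl held by each gene in each library, and the lower bars give the sum in FPKM (no error bars, since each bar is 1 library). Myc holds at least 72.5% in all 8 glands and at most 43.2% in all 16 tumors, where Mycn is the largest share in all but TI library 4 and TIM library 7.

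Since FPKM are per length, the levels of these 3 genes can be added. Myc held 85.4% ± 2.3 (SD) of the summed level in AG and 76.9% ± 4.2 in AGM, but 13.0% ± 13.7 in TI and 11.6% ± 9.4 in TIM. Mycn held 12.4% ± 2.3 in AG, 20.7% ± 3.9 in AGM, 73.2% ± 16.5 in TI and 64.0% ± 17.4 in TIM. The share of Mycl was 2.15% ± 0.28 in AG, 2.47% ± 1.37 in AGM, 13.8% ± 9.5 in TI and 24.3% ± 12.3 in TIM. Myc thus held the largest mean share in both kinds of gland and Mycn in both kinds of tumor. The gland shares did not overlap with those of the tumors for Myc. The glands were rich in cortex RNA and the tumors held almost none, and the part of this in the shares was not tested. The summed level was 10.9 ± 5.3 FPKM in TI, 4.40 ± 1.31 FPKM in TIM, 5.24 ± 0.25 FPKM in AG and 3.74 ± 0.79 FPKM in AGM. The TIM tumors, at 2.45 to 6.11 FPKM, overlapped with the glands in this sum, and the TI tumors ran from 4.03 to 17.6 FPKM. The sums and shares count only the mouse loci, so the human MYCN transgene of AGM and TIM is not in them as a gene of its own. They are a description without a test.

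**Figure D2:**
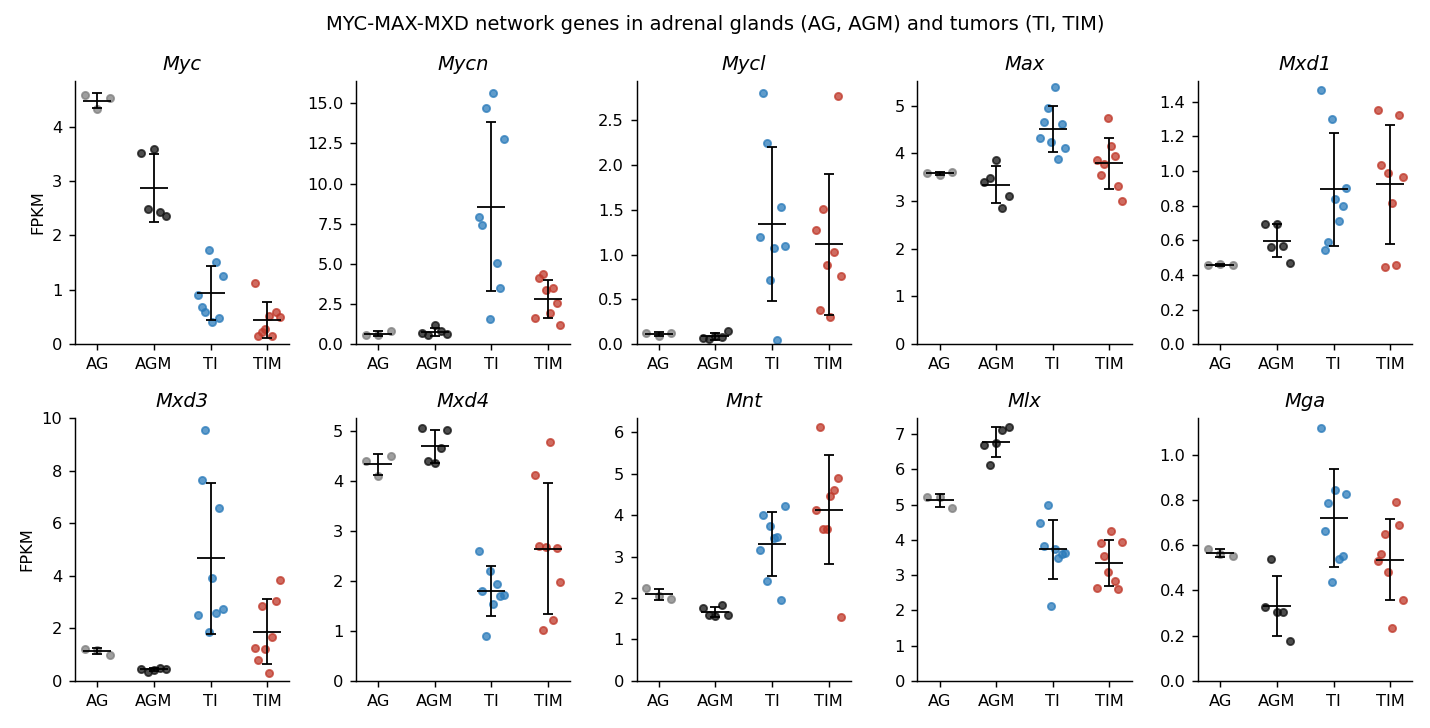
Each panel plots the FPKM of a network gene for every library (points) in AG (n = 3), AGM (n = 5), TI (n = 8) and TIM (n = 8), with the mean and SD as black bars; axes start at 0. Myc is highest in AG (4.32 to 4.58 FPKM), Mycn in TI (1.57 to 15.6 FPKM), and Mlx in AGM (6.11 to 7.21 FPKM).

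Max (ENSMUSG00000059436, chr12:76984043-77009009, minus strand), the obligate partner, moved little. It was at 3.58, 3.54 and 3.61 FPKM in AG and at 3.39, 3.48, 3.87, 2.86 and 3.10 FPKM in AGM. The lowest, median and highest levels were 3.89, 4.46 and 5.39 FPKM in TI and 2.99, 3.82 and 4.74 FPKM in TIM. All TI libraries were above all glands, and the TIM range held the AG range within it. Max rose by 0.26 ± 0.10 in TI vs AG (FDR = 0.0382, limma). Leaving out any AG library, or TI library 2, 3, 5 or 7, ended this call (FDR between 0.0522 and 0.107), as did recomputed FPKM (FDR = 0.105), limma-voom (FDR = 0.108) and a filter of at least 1 FPKM in every library (FDR = 0.062). The differences in TIM vs AG (0.06 ± 0.10, FDR = 0.672), TIM vs TI (-0.21 ± 0.08, FDR = 0.0576) and TIM vs AGM (0.14 ± 0.09, FDR = 0.169) did not pass. Recomputed FPKM turned the sign in TIM vs AG (-0.07, FDR = 0.714) and took TIM vs TI (-0.38, FDR = 0.0176) and TIM vs AGM (0.47, FDR = 0.00268) past the threshold.

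Among the antagonists, the MXD genes went different ways. Mxd4 (ENSMUSG00000037235, chr5:34331227-34345240, minus strand), an MXD repressor of differentiated cells, was at 4.39, 4.10 and 4.50 FPKM in AG and at 5.05, 4.4, 4.36, 4.65 and 5.02 FPKM in AGM. In TI it was at 0.895 at the lowest, 1.76 at the median and 2.59 FPKM at the highest, below every gland. In TIM the range from 1.01 over 2.67 to 4.78 FPKM overlapped with the glands through TIM library 5 (4.78 FPKM) and TIM library 1 (4.13 FPKM). Mxd4 fell in TI vs AG by 0.95 (SE 0.23, FDR = 0.00154, limma) and in TIM vs AGM, with -0.73 ± 0.20 (FDR = 0.00274). It also fell in TIM vs AG by 0.63 (SE 0.23, FDR = 0.0271). The call in TIM vs AG was lost without AG library 1 (FDR = 0.077), 2 (FDR = 0.0608) or 3 (FDR = 0.0846), and in a fit of TIM and AG alone (FDR = 0.107).

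Mxd3 (ENSMUSG00000021485, chr13:55472981-55477908, minus strand) differs from its relatives in that it is known to be expressed in dividing cells. It was at 1.20, 1.18 and 0.990 FPKM in AG and at 0.458, 0.345, 0.405, 0.507 and 0.459 FPKM in AGM. In TI the lowest, median and highest levels were 1.86, 3.31 and 9.56 FPKM, all above the glands, and in TIM 0.315, 1.47 and 3.85 FPKM, a range that held all AG and AGM libraries. Mxd3 rose by 1.26 ± 0.36 in TI vs AG (FDR = 0.00559, limma) and by 0.88 ± 0.31 in TIM vs AGM (FDR = 0.015). In TIM vs AG the difference was 0.32 ± 0.36 (FDR = 0.49). TIM tumors had less than TI tumors, by -0.95 ± 0.27 (FDR = 0.0148), which did not pass in a fit of TI and TIM alone (FDR = 0.0617).

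The summed level of 10 proliferation markers such as Mki67 and Top2a was set beside Mxd3, without a test. The sum was 15.3 to 120 FPKM in TI and 2.39 to 67.7 FPKM in TIM, against 12.7 to 13.5 FPKM in AG and 5.30 to 7.19 FPKM in AGM. Among tumors, TI library 3 had the highest sum and the highest Mxd3 (120 and 9.56 FPKM), and TIM library 5 the lowest sum and the lowest Mxd3 (2.39 and 0.315 FPKM). Between these, the order of the sums was not always that of Mxd3. TI library 5 had a sum of 70.6 and Mxd3 at 3.91 FPKM, and TI library 7 had 66.5 and 6.59 FPKM. Of the 10 markers, 8 rose in TI vs AG, 5 in TIM vs AG and 8 in TIM vs AGM, beside 24.6%, 22.5% and 31.9% of all genes tested. In TIM vs TI 2 fell, beside 12.9% of all genes. Mki67, Top2a, Ccnb1, Ccna2, Bub1, Birc5 and Tyms reached 1 FPKM in no gland, so they entered the test through tumors alone. The part of cell division in the Mxd3 differences was not tested. The span of Mxd3 shares 1526 bases with Prelid1, a protein-coding gene on the opposite strand, and the strand setting of the counting is not given in the sources used here, so Mxd3 values may include reads of that gene. Long noncoding RNAs lie on the opposite strand of Mycn (Gm59473, 2979 shared bases) and Mycl (Gm54255, 6875 shared bases), with the same limit.

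**Figure D3:**
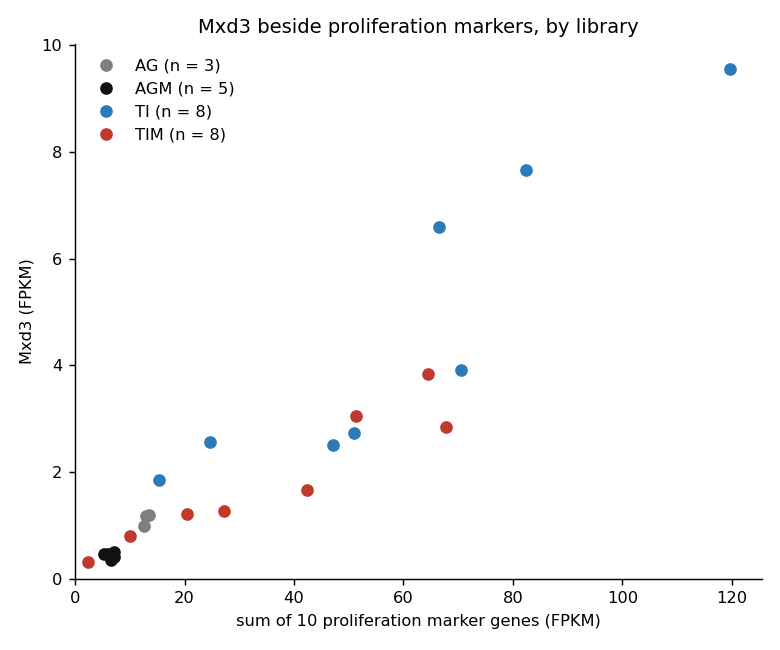
Points plot Mxd3 (FPKM, vertical axis) against the summed FPKM of 10 proliferation marker genes (horizontal axis) for the 24 libraries, colored by group. Glands lie at the lower left, with sums of 5.30 to 13.5 FPKM, and TI library 3 at the upper right (120 and 9.56 FPKM).

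Mxd1 (ENSMUSG00000001156, chr6:86624024-86646218, minus strand), which is induced as cells differentiate, was low in all groups. It was at 0.456, 0.462 and 0.456 FPKM in AG and at 0.694, 0.559, 0.696, 0.570 and 0.471 FPKM in AGM. Its lowest, median and highest levels were 0.544, 0.820 and 1.47 FPKM in TI and 0.448, 0.978 and 1.35 FPKM in TIM. TI and AG did not overlap, while TIM libraries 3 and 6 were at AG level. No gland reached 1 FPKM, so Mxd1 also entered the test through tumors alone. The rise was 0.36 ± 0.15 in TI vs AG (FDR = 0.0419, limma) and 0.38 ± 0.15 in TIM vs AG (FDR = 0.0339). For Mxd1 in TI vs AG the call ended when any AG library, or TI library 1, 4, 5 or 8, was left out (FDR between 0.051 and 0.104), with limma-voom (FDR = 0.0666) and with no filter on low values (FDR = 0.0639). Mxd1 in TIM vs AG lost its call without any AG library or TIM libraries 1 and 7 (FDR between 0.0577 and 0.0893), with recomputed FPKM (FDR = 0.0749), with limma-voom (FDR = 0.112), in a fit of TIM and AG alone (FDR = 0.0657) and with no filter on low values (FDR = 0.0516). Neither TIM vs TI (0.02 ± 0.11, FDR = 0.939) nor TIM vs AGM (0.25 ± 0.12, FDR = 0.0794) passed, but TIM vs AGM passed with recomputed FPKM (0.68, FDR = 0.0161) and with limma-voom (0.92, FDR = 0.0154).

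Mnt (ENSMUSG00000000282, chr11:74721338-74736836, plus strand), a broadly expressed MAX partner that restrains MYC activity, was higher in most tumors than in glands. It was at 2.24, 2.04 and 1.99 FPKM in AG and at 1.76, 1.6, 1.57, 1.84 and 1.58 FPKM in AGM. The lowest, median and highest levels were 1.94, 3.45 and 4.23 FPKM in TI and 1.55, 4.29 and 6.12 FPKM in TIM. TI library 7 (1.94 FPKM) and TIM library 8 (1.55 FPKM) were at gland level, and all other tumors were above all glands. Mnt rose by 0.68 ± 0.20 in TIM vs AG (FDR = 0.00783, limma) and by 0.89 ± 0.17 in TIM vs AGM (FDR = 0.000112). In TI vs AG the difference of 0.46 ± 0.20 did not pass (FDR = 0.0669), but it passed in a fit of TI and AG alone (FDR = 0.0358) and without TI library 3 (FDR = 0.0497) or TI library 7 (FDR = 0.0292). In TIM vs TI the difference was 0.23 ± 0.15 (FDR = 0.286), and it passed without TIM library 8 (FDR = 0.0203).

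Mga (ENSMUSG00000033943, chr2:119727694-119800062, plus strand), a very large protein that joins MAX to a Polycomb complex, did not pass the filter of at least 1 FPKM in 3 libraries and was tested by exact permutation. It was at 0.584, 0.561 and 0.552 FPKM in AG and at 0.328, 0.540, 0.305, 0.303 and 0.178 FPKM in AGM. The lowest, median and highest levels were 0.438, 0.723 and 1.12 FPKM in TI and 0.235, 0.546 and 0.790 FPKM in TIM. All AGM libraries were below all AG libraries, and the tumors overlapped with both. None of the 5 comparisons passed, and none had an unadjusted p under 0.05 (exact two-sided permutation, adjusted p of 0.356 in TI vs AG, 0.739 in TIM vs AG and 0.151 each in TIM vs AGM, TIM vs TI and AGM vs AG). With recomputed FPKM the last 3 had an adjusted p of 0.0704 in the exact permutation test. On that scale Mga passed the filter, and limma called it lower in AGM vs AG (-0.87, FDR = 0.0167) and higher in TIM vs AGM (0.66, FDR = 0.0117).

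Mlx (ENSMUSG00000017801, chr11:100978080-100983043, plus strand), the MAX-like partner of the glucose sensors, was lower in tumors. It was at 5.20, 5.23 and 4.92 FPKM in AG and at 6.70, 6.11, 6.75, 7.11 and 7.21 FPKM in AGM. The lowest, median and highest levels were 2.12, 3.67 and 4.99 FPKM in TI and 2.60, 3.32 and 4.25 FPKM in TIM. AGM was above all other groups, and only TI library 3 (4.99 FPKM) reached the AG range. Mlx fell in TI vs AG by 0.39 (SE 0.15, FDR = 0.0297, limma) and in TIM vs AG by 0.51 (SE 0.15, FDR = 0.00651). The difference was largest in TIM vs AGM, with -0.85 ± 0.12 (FDR = 3.57e-06). The call in TI vs AG was lost without AG library 1 (FDR = 0.0869), 2 (FDR = 0.0907) or 3 (FDR = 0.0633), and in a fit of TI and AG alone (FDR = 0.0559). In AGM vs AG the difference of 0.34 ± 0.16 did not pass (FDR = 0.11) and turned its sign with recomputed FPKM (-0.07, FDR = 0.835). The span of Mlx shares 1340 bases with Psmc3ip, a protein-coding gene on the opposite strand, with the same limit as for Mxd3.

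**Figure D4:**
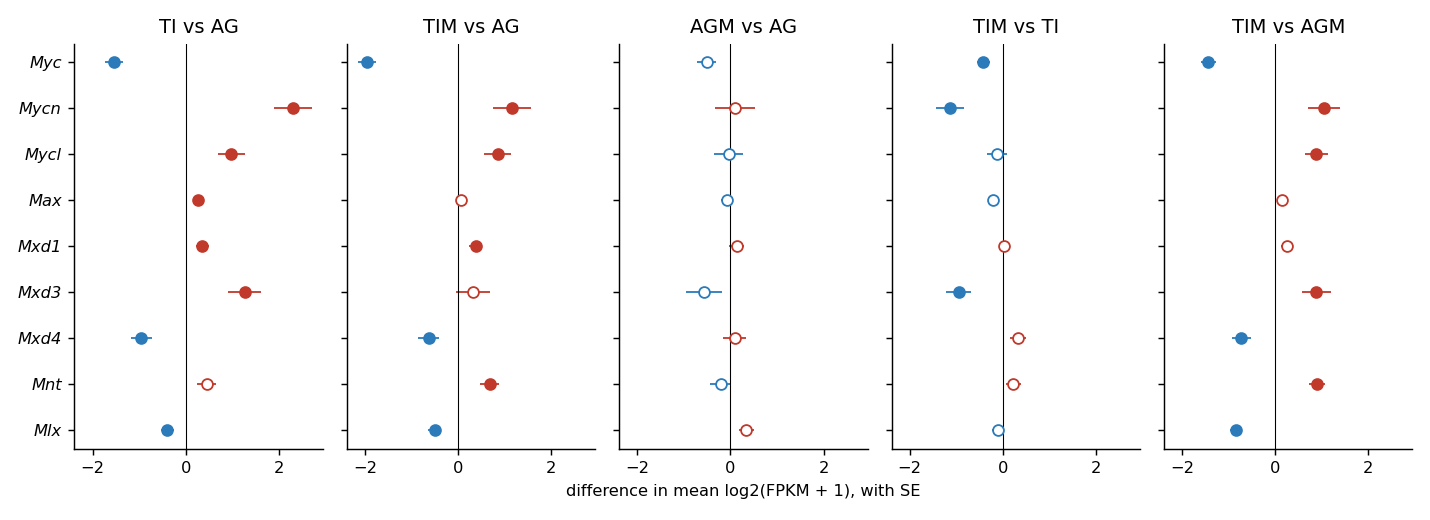
Points give the difference in mean log2(FPKM + 1) with its SE (horizontal bars) for the 9 tested network genes in 5 comparisons; filled points passed FDR 0.05 in limma, open ones did not, red is higher and blue lower in the group named at the left of the pair. Mycn (2.30) and Myc (-1.53 in TI vs AG, -1.95 in TIM vs AG) show the largest differences between tumors and AG, and all 9 points are open in AGM vs AG.

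Of the 9 network genes tested, 5 rose and 3 fell in TI vs AG, where 24.6% of all 10171 genes tested rose and 27.7% fell. In TIM vs AG, 4 rose and 3 fell, beside 22.5% and 28.5% of all genes. In TIM vs AGM, 4 rose and 3 fell, beside 31.9% and 33.4%. There, limma-voom called 5 higher and 3 lower, beside 3915 and 2553 of all 10171 genes. Recomputed FPKM, which takes in Mga, called all 10 members, 7 higher and 3 lower, beside 5470 and 3659 of 14422 genes. Myc, Mxd4 and Mlx were the 3 that fell in each of these comparisons, of which TI vs AG and TIM vs AG share the AG libraries and TIM vs AG and TIM vs AGM the TIM libraries. The members that rose in TI vs AG were Mycn, Mycl, Max, Mxd1 and Mxd3, those in TIM vs AG were Mycn, Mycl, Mxd1 and Mnt, and those in TIM vs AGM were Mycn, Mycl, Mxd3 and Mnt. Of these, Mycl and Mxd1 reached 1 FPKM in no gland, Mycn only in AGM library 3 and Mxd3 only in AG libraries 1 and 2. None of these would thus have passed the filter of 1 FPKM in 3 libraries without the tumors. The median difference of the 9 genes was 0.36 in TI vs AG, 0.32 in TIM vs AG and 0.25 in TIM vs AGM, against -0.00206, -0.00486 and 0.0333 for all genes. With recomputed FPKM the median in TIM vs AGM was 0.67 over 10 members, against 0.24 for all genes.

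In TIM vs TI, which sets tumors with both transgenes against tumors with IGF2BP1 alone, 3 of 9 fell (Mycn, Mxd3 and Myc), beside 12.9% of all genes that fell and 10% that rose. The 4 members with an unadjusted p under 0.05, which include Max, were all lower. TIM and TI also differed in IGF2BP1 dose, and most TI samples were from a run without TIM samples. Tumor site and survival time also differed between these mice in the study. The MYCN transgene, IGF2BP1 dose, run, tumor site and age cannot be told apart in this comparison. With recomputed FPKM, the split of all genes called in TIM vs TI moved from 1017 higher and 1315 lower to 1074 higher and 2521 lower, and Max joined the members that fell. In AGM vs AG, 0 of 9 passed in limma, beside 14.6% of all genes that rose and 14.0% that fell. There, 2 members had an unadjusted p under 0.05 (Myc and Mlx). Limma-voom called 3 members in AGM vs AG (Myc, Max and Mnt, all lower), beside 4235 of all 10171 genes. The fit of only those groups called 4 (Myc, Mxd3 and Mnt lower, Mlx higher), beside 6312 of 10171 genes. Recomputed FPKM called 5, all lower (Myc, Max, Mxd3, Mnt and Mga), beside 5863 of 14422 genes. Recomputed FPKM moved the split of all genes in AGM vs AG from 1488 higher and 1420 lower to 1280 higher and 4583 lower, and in TIM vs AGM from 3241 and 3398 to 5470 and 3659. The direction of the network in AGM vs AG thus hung on the scaling, while no member that passed in another comparison changed its direction under recomputed FPKM.

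Whether the tumor against gland difference was unlike between groups with and without the MYCN transgene was tested as (TIM vs AGM) minus (TI vs AG). These groups also differ in Cre, which AG lacks, in run, in IGF2BP1 dose, in age and in tumor site. None of these can be told apart from the MYCN transgene here. In limma 0 of 9 members passed, beside 10% of all genes, and 2 had an unadjusted p under 0.05. These were Mycn (-1.24 ± 0.53, FDR = 0.151) and Mlx (-0.46 ± 0.19, FDR = 0.143). Without TI library 4 both passed (Mycn -1.48, FDR = 0.0297; Mlx -0.54, FDR = 0.0322). Limma-voom and recomputed FPKM called 0 members as well.

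Within the 8 TI tumors and within the 8 TIM tumors, the level of Mycn was set against the other 9 network genes, which gave 18 relations of log2(FPKM + 1). None passed after adjustment (smallest adjusted exact permutation p = 0.202). Myc and Mycn ran against each other in TIM, with Pearson's r = -0.757 (exact permutation p = 0.0251, adjusted 0.202) and Spearman's rho = -0.762 (exact permutation p = 0.0368, adjusted 0.331). Without the 2 libraries farthest from the median of Mycn, r was -0.848, and with recomputed FPKM these values were -0.782 and -0.948. In TI the same pair gave r = -0.526 (exact permutation p = 0.181, adjusted 0.394) and rho = -0.548 (exact permutation p = 0.171, adjusted 0.44), and r was -0.644 without the 2 farthest libraries. With recomputed FPKM that value turned its sign, from r = -0.437 over all TI tumors to 0.195 without 2, so the relation in TI did not hold on both scales. Mlx and Mycn in TI gave r = 0.767 (exact permutation p = 0.023, adjusted 0.202) and rho = 0.714 (exact permutation p = 0.0576, adjusted 0.346), and r was 0.344 without the 2 farthest libraries. Mga and Mycn in TI gave r = 0.742 (exact permutation p = 0.0337, adjusted 0.202) and rho = 0.810 (exact permutation p = 0.0218, adjusted 0.331), and r was 0.417 without them. On the deposited scale these relations thus leaned on the 2 farthest libraries, whereas with recomputed FPKM r was 0.807 and 0.649 without 2 for Mlx and 0.791 and 0.615 without 2 for Mga. None of the 18 passed after adjustment on that scale either (smallest adjusted exact permutation p = 0.150).

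The genes whose log2(FPKM + 1) over the 24 libraries was most like that of Mycn, by Pearson's r, were Cbll1 (0.919), Ncoa5 (0.917), Trib2 (0.911), Tmem169 (0.899) and Cbx2 (0.898). Those most like Myc were Ctnna1 (0.964), Rab13 (0.959), Nfkb1 (0.954), B4galt1 (0.953) and Pxk (0.948). Trib2, a pseudokinase, had a mean of 4.75 FPKM in TI, 3.23 in TIM, 1.21 in AG and 0.985 in AGM, and for Ctnna1, the adhesion protein alpha-catenin, these means were 1.78, 1.41, 10.4 and 5.32 FPKM. The libraries share their group structure, so these values describe the pattern and carry no test.

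The other dimer partners of the network were Mxi1, Mlxip and Mlxipl. Mxi1, also an MXD repressor, was at 1.18, 1.26 and 1.16 FPKM in AG and at 1.08, 1.11, 1.1, 1.03 and 0.805 FPKM in AGM. It ran from 1.18 to 2.52 FPKM in TI and from 1.98 to 3.21 FPKM in TIM, where every library was above every gland. It rose in TIM vs AG by 0.61 ± 0.12 (FDR = 0.000172, limma), in TIM vs AGM by 0.73 ± 0.10 (FDR = 1.44e-06) and in TIM vs TI by 0.33 ± 0.09 (FDR = 0.0108; a call lost with recomputed FPKM and limma-voom), while TI vs AG gave 0.28 ± 0.12 (FDR = 0.0501). Mxi1 in AGM vs AG gave -0.12 (FDR = 0.517), which passed with recomputed FPKM (-0.60, FDR = 0.0196) and limma-voom (-0.73, FDR = 0.0144). Mlxip, a glucose-sensing MLX partner, passed in none of the 5 comparisons, but the lower level of Mlxip in AGM vs AG (-0.35, FDR = 0.0883) passed with recomputed FPKM (-0.96, FDR = 0.00843), with limma-voom (FDR = 0.00883) and in a fit of those groups alone (FDR = 0.00156). Mlxipl, the other such partner, was at 0.194, 0.437 and 0.561 FPKM in AG, at 7.16, 8.47, 4.0, 10.7 and 16.5 FPKM in AGM, and at no more than 0.00685 FPKM in TI and 0.341 FPKM in TIM. It rose in AGM vs AG by 2.78 ± 0.22 (FDR = 1.21e-09) and fell in TIM vs AGM with -3.17 ± 0.18 (FDR = 2.66e-13). Mlxipl reached 1 FPKM in AGM libraries alone and entered the test through them. Adrenal cortex markers were highest in the same group, AGM, at 4394 to 5514 FPKM. All AGM samples were from another run than AG. The part of run and batch correction in these AGM levels was not tested.

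Complexes that work with the network are read beside the shares of all genes that rose and fell, 24.6% and 27.7% in TI vs AG and 22.5% and 28.5% in TIM vs AG. Of 12 MYC coactivators, 4 rose in TI vs AG and 2 in TIM vs AG, and Kat5, an acetyltransferase, was among them in both (0.29, FDR = 0.0422, and 0.35, FDR = 0.0163). With recomputed FPKM 2 of the 12 rose in TI vs AG and 0 in TIM vs AG, so both calls in TIM vs AG, that of Kat5 included, were lost on that scale. Of 11 tested subunits of the SIN3 and NCOR corepressors used by MXD proteins and MNT, 1 rose in TI vs AG, and 1 rose and 5 fell in TIM vs AG. Sap30, a SIN3 subunit, was the 1 that rose, by 1.20 (FDR = 0.000279) and 1.07 (FDR = 0.000948). Of 9 partners of MGA in the Polycomb complex PRC1.6, 4 rose in TI vs AG and 1 fell in TIM vs AG. Of 9 tested genes of MYC protein turnover, 4 rose in TI vs AG, and 2 rose and 1 fell in TIM vs AG. Plk1 and Cdk1, mitotic kinases that also serve cell division in general, led these with 2.19 (FDR = 0.000198) and 1.87 (FDR = 0.000817) in TI vs AG. Plk1, Cdk1 and Aurka, also of this list, reached 1 FPKM in no gland, so they entered the test through tumors alone. Medians of these lists in TI vs AG lay between -0.10 and 0.32, beside -0.00206 for all genes.

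Target genes of MYC rose and fell within the same lists against AG, to be read beside the same shares of all genes. The shares that rose and fell were 31.9% and 33.4% in TIM vs AGM and 14.6% and 14.0% in AGM vs AG. Of 22 tested targets in ribosome biogenesis, 5 rose and 3 fell in TI vs AG (median 0.10), and 7 rose and 1 fell in TIM vs AG (median 0.24; 5 rose and 4 fell of 24 with recomputed FPKM). Npm1, a nucleolar chaperone, rose by 1.01 (FDR = 0.0251) and 1.25 (FDR = 0.00694), Nop56, a snoRNP protein, by 1.22 (FDR = 0.000608) and 0.90 (FDR = 0.0079), and Dkc1, another snoRNP protein, changed by -0.68 (FDR = 0.00439) and -0.61 (FDR = 0.0101). In TIM vs AGM, 16 of 22 rose (median 0.57), and with recomputed FPKM 19 of 24 rose (median 0.96), beside an all-gene median of 0.24 on that scale. In AGM vs AG, 1 rose and 3 fell (median -0.27), but with recomputed FPKM 14 of 24 fell (median -0.81), beside an all-gene median of -0.34 on that scale.

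Of 23 tested targets in growth and metabolism, 5 rose and 5 fell in TI vs AG (median 0.19), and 9 rose and 5 fell in TIM vs AG (median 0.10, and -0.12 with recomputed FPKM). In TIM vs AGM, 11 rose and 5 fell (median 0.51), and in AGM vs AG, 1 rose and 6 fell (median -0.33), or 12 of 24 fell with recomputed FPKM (median -0.80). Against AG, in TI and TIM in turn, Tfrc, the transferrin receptor, rose by 1.55 (FDR = 9.08e-05) and 2.30 (FDR = 5.16e-07), and Mthfd2, a mitochondrial folate enzyme, by 1.49 (FDR = 0.0002) and 1.88 (FDR = 1.41e-05). Ccnd2, a D-type cyclin, changed by -3.26 (FDR = 7.14e-15) and -3.28 (FDR = 5.53e-15), and Hspd1, a mitochondrial chaperonin, by -2.41 (FDR = 4.81e-07) and -2.11 (FDR = 3.33e-06). Tfrc reached 1 FPKM in no gland and entered the test through tumors alone. Mthfd2, with a median of 0.994 FPKM in AGM and at most 0.706 FPKM in AG, also needed tumors to pass the filter. Ccnd2 reached 1 FPKM in no tumor and entered through glands alone. Of 10 genes known to be repressed by MYC, 2 rose and 4 fell in TI vs AG, and 1 rose and 3 fell in TIM vs AG. Cdkn1b, a cell cycle inhibitor, rose by 1.81 (FDR = 6.83e-06) and 2.22 (FDR = 3.88e-07), whereas Ndrg2 (-2.81, FDR = 9.33e-05, and -1.55, FDR = 0.0161) and Gas1 (-1.96, FDR = 5.52e-08, and -1.78, FDR = 2.52e-07) fell. Of 6 targets of the MLX partners, 3 fell in each comparison, among them the lipid enzymes Fasn (-2.15, FDR = 0.00499, and -2.35, FDR = 0.00258) and Acaca (-1.64, FDR = 4.49e-05, and -1.75, FDR = 2.04e-05).

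**Figure D5:**
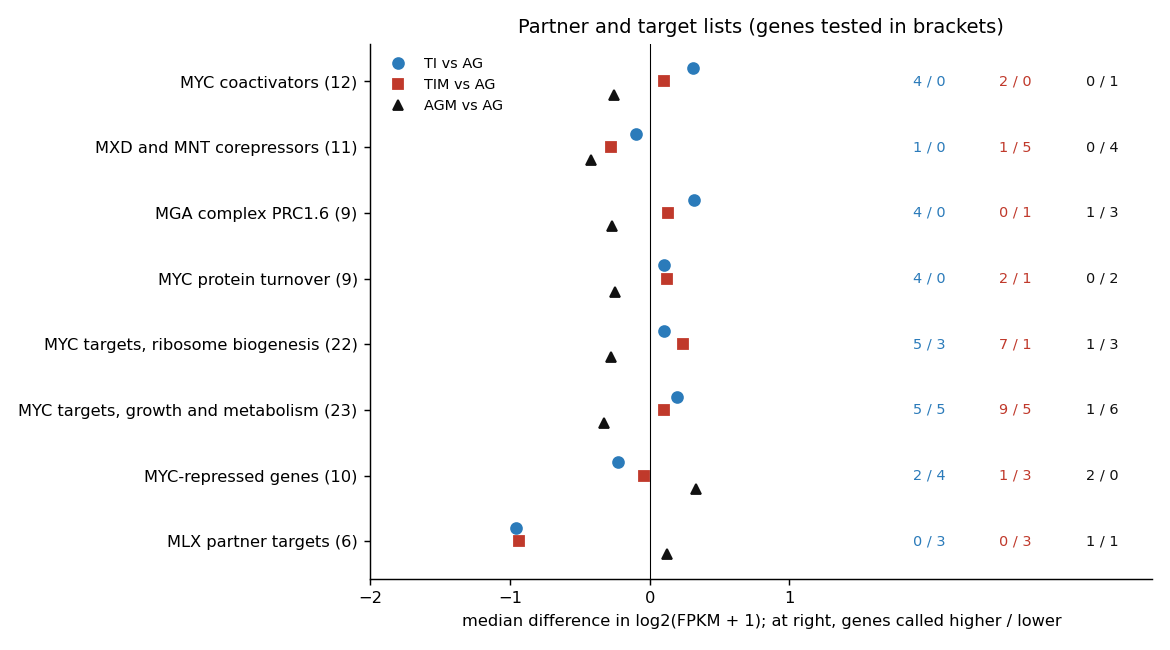
Symbols plot the median difference in log2(FPKM + 1) of each list in TI vs AG (circles), TIM vs AG (squares) and AGM vs AG (triangles), without error bars, and the figures at the right count genes called higher and lower in limma. Target lists of MYC have medians of 0.10 to 0.24 in the tumors, and the MLX partner targets -0.96 and -0.94.

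Other cell types of the tissue were followed by marker lists. Their counts are read beside the 24.6% of all genes that rose and 27.7% that fell in TI vs AG. In TIM vs AG these shares were 22.5% and 28.5%. Of 8 tested leukocyte markers, 1 fell in TI vs AG and 2 in TIM vs AG, with summed levels of 24.9 to 97.0 FPKM in TI and 49.5 to 118 in TIM beside 51.2 to 88.5 in AG and 85.6 to 174 in AGM. Of 6 endothelial markers, 4 fell in TI vs AG and all 6 in TIM vs AG, with sums of 2.35 to 24.6 FPKM in TI and 1.31 to 8.88 in TIM beside 18.6 to 19.8 in AG and 14.4 to 17.3 in AGM. Of 6 fibroblast markers, 1 rose and 3 fell in both, with sums of 7.87 to 78.0 FPKM in TI and 5.39 to 37.0 in TIM beside 17.1 to 20.5 in AG and 7.20 to 14.5 in AGM. Of 5 tested Schwann and sustentacular markers, 2 fell in TI vs AG and 1 in TIM vs AG, with sums of 0.268 to 1.66 FPKM in TI and 0.390 to 44.3 in TIM beside 2.97 to 5.33 in AG and 1.62 to 4.38 in AGM. The part of these cells in the levels of network genes was not tested.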

How the data were processed

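RNA-seq of 24 mouse samples in 4 groups was analysed from the deposited table. Per the labels and the study's methods, the authors trimmed reads with cutadapt 2.8, aligned them with HISAT2 2.1.0 to mm39, counted them with featureCounts 2.0.0, corrected the counts with ComBat-seq and scaled them by TMM in edgeR 3.40. The authors deposited FPKM for protein-coding genes. The annotation and strand setting of the counting are not given in the sources used here. Multiplied by gene length, 100.0% of the values were whole multiples of the worth of 1 read (within 0.05), so corrected reads could be recovered. They are not raw reads, and ComBat-seq can move low genes. Fold changes, p-values and FDR of the authors' own comparisons in the table were not used.

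Columns were assigned to groups by name. As they could not be tied to single samples, run, zygosity and tumor site were not used. Nothing in the labels states that libraries are from separate animals, so p-values measure the spread between these samples. No columns were identical.

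With limma 3.58.1 (R 4.3.3; lmFit, eBayes with trend), log2(FPKM + 1) of the 10171 genes that reached 1 FPKM in 3 or more libraries was fitted on all 24 libraries, with Benjamini-Hochberg adjustment over all genes tested (FDR) and a threshold of 0.05. The ± values of differences are SE. Mga, under the filter, was tested by exact two-sided permutation over library splits, adjusted over 5 comparisons. On simulated data for TI vs AG (10071 genes, 200 changed), 98.5% of changed genes were recovered and 7.94% of calls were false. In the deposited data, 5327 of 10171 genes were called in TI vs AG. The spread there was unequal between groups, as for Mycn, with an SD of 0.147 FPKM in AG and 5.27 FPKM in TI. Whether these rates hold for the network genes was not tested. Alternatives were a pseudocount of 0.1, other filters, recomputed FPKM, limma-voom, a fit of only the groups compared, and leaving out each library. The network genes, marker lists and target lists were chosen with earlier results of these data known. All network genes are named. Of each list, the 2 largest rises and the 2 largest falls among genes past the threshold in TI vs AG and TIM vs AG could be named, and the 5 genes most like Mycn and Myc. Coordinates and sequences are from the GENCODE annotation and the GRCm39 genome. Plots were drawn with matplotlib 3.10.9.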

Additional observations from a re-analysis of the deposited data

Results flagged for a closer look

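Among 30 sets of values (10 network genes in AGM, TI and TIM), 1 stood apart from its group: Myc in TIM library 1, at 1.13 FPKM, lay farther from the next library than the spread of the other TIM libraries allows by Dixon's criterion (gap over range 0.54). Chance alone gives about 1 such value in 20 sets. The same library had 1.65 FPKM of Mycn, under the TIM median of 2.97 FPKM. The cause was not tested.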

How the results depend on the processing

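Network genes called by limma on log2(FPKM + 1) of all 24 libraries kept their direction under all alternatives run. Mlx in AGM vs AG was not among these calls. The fit of those groups alone called it higher (FDR = 0.0025), and recomputed FPKM turned its sign (-0.07). The filter of at least 1 FPKM in every library left 3464 genes and 3 network genes, so counts of genes called fell to 1627 in TI vs AG, 1534 in TIM vs AG, 569 in AGM vs AG, 737 in TIM vs TI and 1944 in TIM vs AGM, and those of network genes to 1, 2, 0, 0 and 2. Limma-voom called 5 network genes in TI vs AG, 4 in TIM vs AG and 3 in AGM vs AG, beside 4943, 4836 and 4235 of all 10171 genes. When only the groups compared set the spread, 6312 genes (4 of the network) were called in AGM vs AG and 1309 (1 of the network) in TIM vs TI. Recomputed FPKM called 5863 genes (5 of the network) in AGM vs AG and 3595 genes in TIM vs TI. By recovered reads the share of Myc in AG was 82.4% and that of Mycl 3.09%. The cause of the other shifts was not tested.

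With 1 library left out, genes called ranged from 4322 to 5446 in TI vs AG, 4148 to 5420 in TIM vs AG, 1727 to 2878 in AGM vs AG (1727, 1771 and 1826 without AG libraries 1, 2 and 3), 1815 to 2778 in TIM vs TI and 5968 to 6894 in TIM vs AGM. Network genes called ranged from 5 to 8 in TI vs AG (5 without any AG library) and 3 to 7 in TIM vs AG (3 without AG library 2, 4 without AG library 1 or 3). They stayed at 0 in AGM vs AG, and ranged from 2 to 4 in TIM vs TI and 7 to 8 in TIM vs AGM. In (TIM vs AGM) minus (TI vs AG) they ranged from 0 to 2. The difference of Mga ranged from -0.29 to -0.20 in AGM vs AG, where the unadjusted exact permutation p was 0.0476 without any AG library and 0.0286 without AGM library 2, from -0.20 to -0.12 in TIM vs TI and from 0.16 to 0.26 in TIM vs AGM. In TIM vs AG it ranged from -0.07 to 0.01 and in TI vs AG from 0.08 to 0.16. No paired analysis was possible because the columns carry no replicate numbers of the labels. Only 3 AG libraries limit every comparison with AG.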
